A study of Mus musculus with 12 samples.

Results

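Creatine and arginine metabolism in the mouse kidney was followed through 9 genes, Gatm, Gamt, Ass1, Asl, Arg2, Ddah1, Agxt2, Slc6a8 and Ckb, which were taken by gene symbol from a table of 39171 genes, and all 9 were among the 15589 genes with enough counts to be tested. RNA was sequenced from whole kidney of 12 male mice at most 3 months old, 1 library per mouse, in 3 groups of 4. The wild-type group carried no knock-in. The other two groups were homozygous for the same knock-in, GNE M743T, in the gene of the enzyme that starts sialic acid synthesis, and the submitters divided them by phenotype into healthy and sick mice, here called healthy knock-in and sick knock-in. No source used here says how sickness was scored or which strain and litters were used, so p-values measure the spread between these mice. Sick and healthy knock-in mice share the knock-in genotype, so their comparison holds phenotype without it, whereas the comparison of sick with wild-type mice holds both. Skeletal muscle markers were high in the healthy libraries alone (183 to 298 CPM in sum), so these groups may also differ in more than phenotype.

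The kidney is the body's main source of guanidinoacetate, the precursor of creatine, and of the arginine it is made from. Proximal tubule cells take up citrulline and turn it into arginine through argininosuccinate synthase (Ass1) and argininosuccinate lyase (Asl). Arginine:glycine amidinotransferase (Gatm) uses arginine and glycine to make guanidinoacetate, which guanidinoacetate methyltransferase (Gamt) converts to creatine with a methyl group from S-adenosylmethionine. Arginine is broken down by arginase 2 (Arg2), a mitochondrial enzyme that yields urea and ornithine, while its methylated forms, which inhibit nitric oxide synthases, are cleared by Ddah1 and by the mitochondrial aminotransferase Agxt2. Slc6a8 carries creatine into cells and brain-type creatine kinase (Ckb) links creatine to ATP.

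Promoter windows were available from RefSeq (GRCm38.p6) for 6 of the 9 genes, and 3 of them are printed because they belong to the enzyme pair of creatine synthesis, whose levels diverged, and to the one gene with a long HNF4 match. Each printed stretch is 150 bases on the gene's strand and ends before the gene's first annotated base. Capitals mark matches to CAAAGTCCA (an HNF4 motif) or GGGCGG (the GC box), searched on both strands.

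Gatm, chr2:122611304-122611453, minus strand: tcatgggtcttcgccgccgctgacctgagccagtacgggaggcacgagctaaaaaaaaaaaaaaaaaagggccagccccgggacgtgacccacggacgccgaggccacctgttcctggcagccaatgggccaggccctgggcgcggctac

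Gamt, chr10:80261013-80261162, minus strand: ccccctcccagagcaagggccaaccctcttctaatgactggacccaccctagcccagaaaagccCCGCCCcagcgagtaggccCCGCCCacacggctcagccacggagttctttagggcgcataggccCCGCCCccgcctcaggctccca

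Agxt2, chr15:10358382-10358531, plus strand: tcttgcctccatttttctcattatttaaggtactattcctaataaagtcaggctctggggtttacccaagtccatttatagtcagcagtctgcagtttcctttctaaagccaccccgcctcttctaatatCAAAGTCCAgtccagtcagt

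Motifs were counted in the 250 bases before each annotated RefSeq start, so some matches lie outside the printed stretches. The Agxt2 match begins 21 bases before the more upstream of its annotated starts, and 0.384% of 32851 such windows held this motif. Gamt had 3 GC boxes, all on the opposite strand, and Ass1, which is not printed, had 1, against 32.7% of all windows with at least 1. The short HNF4 core CAAAG, which lies inside the longer motif, was present in the 250-base windows of Gamt (upstream of the printed stretch), Ckb and Agxt2 and in 48.6% of all windows. No member window matched the HNF1 motifs GTTAATNAT (0.737% of windows) or GTTAAT (6.43%), the shorter lying inside the longer, or the AP-1 motif TGANTCA (6.75%). These matches describe letters in the windows only.

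Depth ranged over the wild-type libraries from 13189478 to 19493856 counts, over the healthy ones from 18191087 to 21925419 and over the sick ones from 10605546 to 22633684. The TMM scaling factors, which correct for composition, were above 1 in all 4 sick libraries (1.23 to 1.39) and below 1 in the other 8 (0.804 to 0.933). Levels are in CPM, that is counts relative to the scaled library size. The 9 genes together took 0.296% to 0.412% of all counts in wild-type mice, 0.313% to 0.397% in the healthy group and 0.0954% to 0.125% in the sick group. Kidney identity was clear from the marker lists, but summed levels of 5 early proximal tubule markers spanned 7871 to 10966 CPM (wild-type), 8959 to 12960 CPM (healthy) and 1108 to 1884 CPM (sick). For 4 late proximal tubule markers the spans were 3703 to 6924, 3921 to 4748 and 186 to 526 CPM. Of these, 3 were called lower against wild-type. Slc5a1 was not, with means of 85.4 (wild-type), 69.4 (healthy) and 94.6 CPM (sick). Macrophage markers, 6 genes, summed to 109 to 207, 164 to 225 and 611 to 1287 CPM. Fibroblast and pericyte markers summed to 322 to 479, 323 to 828 and 2432 to 5220 CPM. Collecting duct principal cell markers summed to 210 to 338, 195 to 370 and 397 to 935 CPM, with 1 of 4 genes called higher against wild-type. Distal convoluted tubule markers summed to 520 to 851, 358 to 603 and 176 to 212 CPM, with 2 of 3 genes called lower against wild-type. The third, Trpm6, had means of 12.1 (wild-type), 7.14 (healthy) and 11.6 CPM (sick). In whole tissue, fewer cells of a type and less RNA per cell cannot be told apart. The part of these shifts in the results on the 9 genes was not tested.

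Against wild-type, 7 of the 9 genes were lower in sick mice, 1 was higher, Arg2, and 1 did not pass, Ckb (edgeR quasi-likelihood test, Benjamini-Hochberg adjusted p below 0.05). Among all 15589 genes tested, 25% were lower and 25.9% higher in that comparison. The median log2 fold change was -1.58 over the 9 genes and 0.02 over all genes tested. All 9 genes had sick and wild-type ranges that did not overlap, as did 43.2% of all genes. Sick against healthy knock-in mice gave the same counts, 7 lower and 1 higher, with 21.9% lower and 24.5% higher among all genes, and a median of -1.45 over the 9 genes against 0.05 over all. Here 7 of the 9 genes had ranges that did not overlap, against 47.2% of all genes, and the 2 with overlap were Gamt and Ckb. None of the 9 genes passed between healthy knock-in and wild-type mice, where edgeR called 0.308% of all genes higher and 0.00641% lower, and 700 genes had an unadjusted p below 0.05. None of the 9 had ranges apart in that comparison, against 3.97% of all genes. The comparisons share their groups, so their values are given side by side and are not independent.

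**Figure D1:**
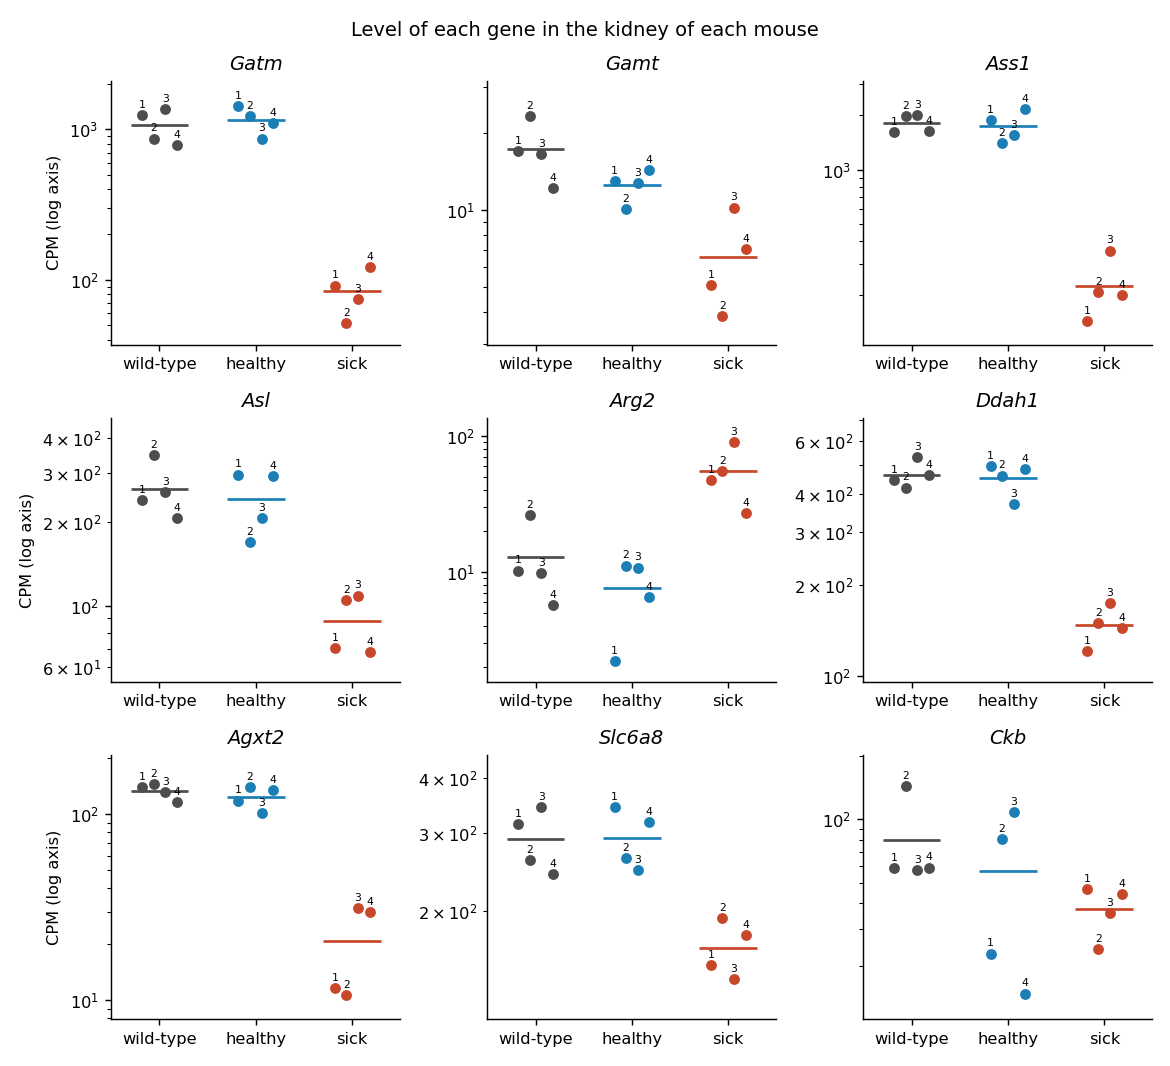
Level of the 9 genes in CPM (log axis) in each of 12 mice, numbered 1 to 4 within the wild-type, healthy and sick groups, with bars at the group means. Arg2 lies above both other groups in all 4 sick mice, 7 genes lie lower, and Ckb varies most among the healthy knock-in mice.

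Transcripts of both enzymes that make arginine from citrulline were lower in sick mice. Ass1 (ENSMUSG00000076441, chr2:31470207-31520672 in GRCm38) was at 1621, 1981, 2013 and 1636 CPM in wild-type mice 1 to 4. Healthy knock-in mice had 1877, 1407, 1555 and 2166 CPM. Sick mice had 143, 208, 354 and 201 CPM, all below the lowest of the other 8. Ass1 therefore fell 8.0-fold against wild-type (log2 fold change -3.00 ± 0.27 SE, n = 4 per group, edgeR adjusted p = 4.85e-06) and 7.73-fold against healthy knock-in mice (-2.95 ± 0.27, adjusted p = 7.06e-06).

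Asl (ENSMUSG00000025533, chr5:130011258-130029247), the next enzyme, was at 239, 347, 255 and 207 CPM in wild-type mice. Its levels were 295, 169, 206 and 291 CPM in healthy and 70.3, 104, 109 and 68.0 CPM in sick mice. It fell 2.98-fold against wild-type (log2 fold change -1.58 ± 0.24 SE, edgeR adjusted p = 1.52e-04) and 2.74-fold against healthy knock-in mice (-1.45 ± 0.24, adjusted p = 3.27e-04). The transcripts for the 2 steps of arginine synthesis thus fell by different amounts. The ratio of Ass1 to Asl counts within a library was 6.79, 5.71, 7.90 and 7.91 in wild-type, 6.35, 8.31, 7.55 and 7.45 in healthy and 2.04, 1.99, 3.26 and 2.96 in sick mice, with no overlap between sick and the rest.

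Gatm (ENSMUSG00000027199, chr2:122594467-122611303), which commits arginine and glycine to creatine, fell furthest of the 9. It was at 1243, 867, 1355 and 786 CPM in wild-type mice. Healthy knock-in mice had 1418, 1226, 868 and 1096 CPM. Sick mice had 91.5, 51.4, 74.5 and 121 CPM, so the highest sick mouse was far below the lowest of the other groups. The fall was 12.6-fold against wild-type (log2 fold change -3.65 ± 0.30 SE, edgeR adjusted p = 2.79e-06) and 13.6-fold against healthy knock-in mice (-3.77 ± 0.30, adjusted p = 3.31e-06), leaving 7.95% of the wild-type level.

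Gamt (ENSMUSG00000020150, chr10:80258151-80261012), the methyltransferase that completes creatine, was low in kidney in all groups and rested on 116 to 394 counts per library. Its levels were 17.0, 23.2, 16.6 and 12.1 CPM in wild-type mice and 13.0, 10.1, 12.7 and 14.3 CPM in healthy knock-in mice. Sick mice had 5.11, 3.85, 10.2 and 7.04 CPM, and sick mouse 3 lay just above the lowest healthy knock-in mouse. Gamt fell 2.66-fold against wild-type (log2 fold change -1.41 ± 0.28 SE, edgeR adjusted p = 0.00120) and 1.93-fold against healthy knock-in mice (-0.95 ± 0.28, adjusted p = 0.0148). With library totals as the only scaling, the second call was lost (-0.37, edgeR adjusted p = 0.236), and in the authors' deposited table its adjusted p was 0.467.

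The transcripts of the 2 creatine enzymes therefore parted. Gatm counts were 73.2, 37.3, 81.9 and 64.8 times those of Gamt in wild-type, 109, 122, 68.4 and 76.6 times in healthy and 17.9, 13.3, 7.30 and 17.2 times in sick mice. The log2 ratio fell by 2.23 against wild-type and by 2.80 against healthy knock-in mice, and in both comparisons the exact permutation p was 0.0286, the smallest that 4 against 4 mice allow (two-sided, 70 splits, adjusted p = 0.0429 over 15 tests of 5 ratios). All 5 ratios reached this smallest p in both sick comparisons. The genes were chosen with earlier results of these data known, so the p-values of the ratios are not independent support.

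Slc6a8 (ENSMUSG00000019558, chrX:73673150-73682502), the creatine transporter, changed least of the 7 lower genes. It was at 315, 261, 343 and 242 CPM in wild-type, 344, 264, 248 and 317 CPM in healthy and 151, 193, 141 and 177 CPM in sick mice, where the groups did not overlap. It fell 1.76-fold against wild-type (log2 fold change -0.81 ± 0.16 SE, edgeR adjusted p = 0.00120) and 1.77-fold against healthy knock-in mice (-0.83 ± 0.16, adjusted p = 0.00126). Both calls ended under scaling by library totals without TMM (-0.22, edgeR adjusted p = 0.254, and -0.23, adjusted p = 0.232), a scaling that moved the median of all genes to 0.61 and 0.63. In the authors' deposited table the adjusted p was 0.201 and 0.183.

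Relative to Gatm, the transporter transcript rose. Slc6a8 counts were 0.253, 0.301, 0.253 and 0.308 of Gatm counts in wild-type mice and 0.242, 0.215, 0.285 and 0.289 in healthy knock-in mice. In sick mice the ratio was 1.65, 3.75, 1.89 and 1.46, so the transporter had more counts than the synthetic enzyme in all 4. The log2 ratio was 2.87 higher than in wild-type and 2.99 higher than in healthy knock-in mice (exact permutation p = 0.0286 in both, adjusted p = 0.0429).

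Ckb (ENSMUSG00000001270, chr12:111669361-111672338), the cytosolic creatine kinase, did not pass in any comparison. It was at 58.7, 144, 57.2 and 59.0 CPM in wild-type mice, where mouse 2 stood apart. Healthy knock-in mice had 23.0, 80.4, 108 and 14.8 CPM, a 7.29-fold range, and sick mice had 46.7, 24.1, 35.7 and 44.2 CPM. The sick mice lay below all wild-type mice but inside the healthy range. The log2 fold change was -1.08 ± 0.54 SE against wild-type (edgeR adjusted p = 0.112) and -0.59 ± 0.54 against healthy knock-in mice (adjusted p = 0.393). Without wild-type mouse 2 the first value was -0.64, and in a fit of the 8 libraries of that comparison alone it was -1.09 and passed (edgeR adjusted p = 0.0265).

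Markers of the thick ascending limb moved with Ckb among the healthy knock-in mice. The summed level of Umod, Slc12a1, Cldn16 and Kcnj1 was 1859, 4317, 5134 and 1443 CPM in healthy knock-in mice 1 to 4, the same order as their Ckb levels. The sum was 3851, 4500, 3578 and 4203 CPM in wild-type mice, where mouse 2 was again the highest. It follows the abundant genes, since mean wild-type levels were 3070 CPM for Umod and 9.10 CPM for Cldn16. The sick mice had 1264, 2340, 3819 and 447 CPM, and there the order differed from that of Ckb, since mouse 4 was lowest in the markers and second highest in Ckb. The part of these markers in the Ckb values was not tested.

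**Figure D2:**
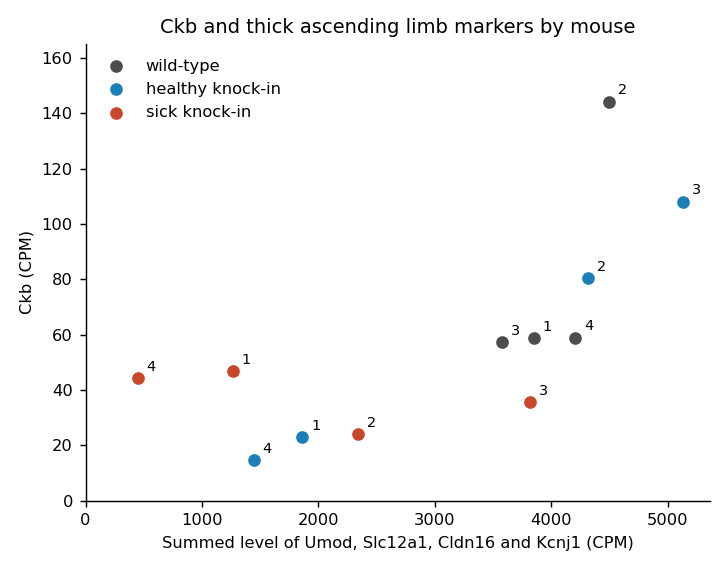
Ckb (CPM) against the summed level of 4 thick ascending limb markers (CPM) in the 12 mice, numbered within group. Healthy knock-in mice 1 and 4 are low and mice 2 and 3 high on both axes, whereas sick mouse 4 has 44.2 CPM of Ckb at the lowest marker sum of 447 CPM.

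The transcript of Arg2, an arginine-degrading enzyme, went the other way. Arg2 (ENSMUSG00000021125, chr12:79130777-79156301) was at 10.3, 26.1, 9.88 and 5.74 CPM in wild-type mice. Healthy knock-in mice had 2.22, 11.2, 10.8 and 6.59 CPM, the lowest being 35 counts. Sick mice had 47.3, 55.1, 89.5 and 27.1 CPM, and the lowest of them was only just above wild-type mouse 2. Principal cell markers summed to 401, 555, 935 and 397 CPM in sick mice 1 to 4, the same order as Arg2. The thick ascending limb markers, at 1264, 2340, 3819 and 447 CPM, had that order too. In wild-type mice only the principal cell order matched Arg2, and in healthy knock-in mice neither did. The part of these cells in the Arg2 values was not tested. Arg2 rose 4.19-fold against wild-type (log2 fold change 2.07 ± 0.53 SE, edgeR adjusted p = 0.00589) and 7.07-fold against healthy knock-in mice (2.82 ± 0.55, adjusted p = 0.00115).

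Wild-type mouse 2 held the first value down, and without it the log2 fold change was 2.66. In healthy against wild-type mice the value for Arg2 was -0.76 with that mouse and -0.15 without it, with no call in either case. The exons of Arg2 share 285 of 1428 bases with Vti1b on the opposite strand, and no source used here says whether the counting used strand. Vti1b did not pass against wild-type (log2 fold change -0.29 ± 0.19 SE, edgeR adjusted p = 0.227), with means of 85.5 CPM in wild-type and 69.9 CPM in sick mice. Smaller exon overlaps of Arg2 (116 bases, Gm48780) and of Agxt2 (155 bases, Gm21973) were with genes that had too few counts to be tested or were not matched by symbol.

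Arg2 counts were 0.00634, 0.0132, 0.00491 and 0.00351 of Ass1 counts in wild-type mice and 0.00118, 0.00795, 0.00696 and 0.00304 in healthy knock-in mice. The sick mice had 0.330, 0.265, 0.253 and 0.135. The log2 ratio was 5.24 higher than in wild-type and 5.95 higher than in healthy knock-in mice, the widest shift of the 5 ratios (exact permutation p = 0.0286 in both, adjusted p = 0.0429).

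**Figure D3:**
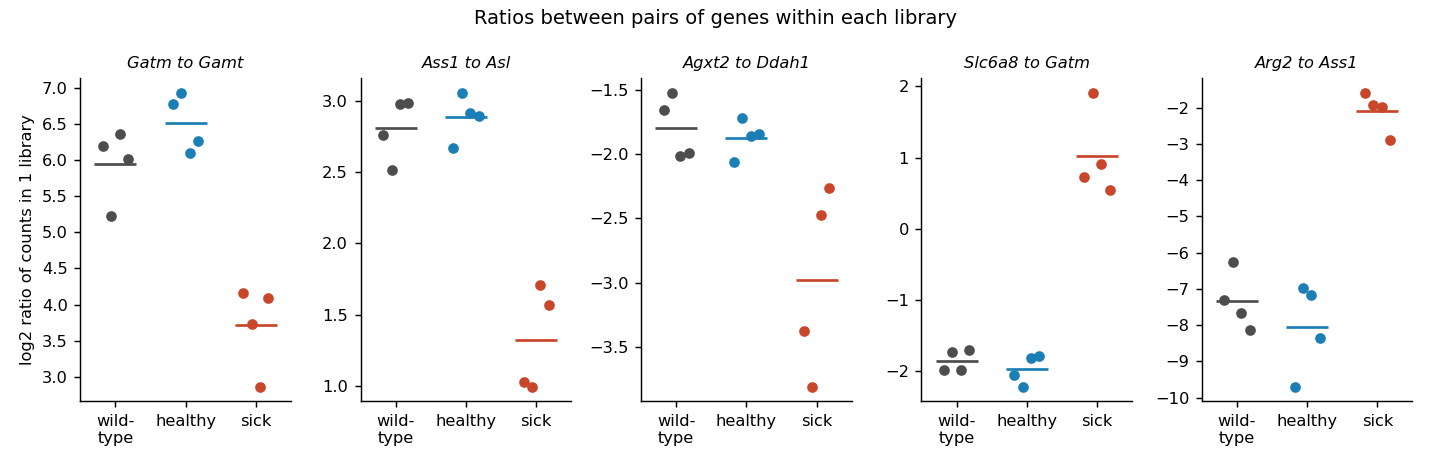
Log2 ratio of the counts of 2 genes in each library, for 5 pairs of genes, with 4 mice per group and bars at the group means. In each of the 5 pairs the 4 sick mice lie apart from the 8 others, and the wild-type and healthy knock-in mice overlap.

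Of the enzymes that clear methylated arginine, Ddah1 and Agxt2 were lower in sick mice. Ddah1 (ENSMUSG00000028194, chr3:145758675-145894277), which hydrolyses asymmetric dimethylarginine to citrulline, was at 443, 420, 529 and 462 CPM in wild-type and 493, 460, 370 and 484 CPM in healthy knock-in mice. Sick mice had 121, 150, 175 and 144 CPM, well below both groups. It fell 3.14-fold against wild-type (log2 fold change -1.65 ± 0.15 SE, edgeR adjusted p = 5.33e-06) and 3.07-fold against healthy knock-in mice (-1.62 ± 0.15, adjusted p = 7.99e-06), with the smallest SE of the 9 genes.

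Agxt2 (ENSMUSG00000089678, chr15:10358532-10410153) transaminates dimethylarginines and beta-aminoisobutyrate. It was at 141, 146, 131 and 116 CPM in wild-type, 118, 140, 102 and 135 CPM in healthy and 11.7, 10.7, 31.5 and 29.9 CPM in sick mice. Sick mice 1 and 2 were well below sick mice 3 and 4. The fall was 6.41-fold against wild-type (log2 fold change -2.68 ± 0.33 SE, edgeR adjusted p = 3.12e-05) and 5.95-fold against healthy knock-in mice (-2.57 ± 0.32, adjusted p = 5.22e-05). Agxt2 lost more than Ddah1, with count ratios of 0.317, 0.347, 0.248 and 0.251 in wild-type, 0.240, 0.304, 0.275 and 0.278 in healthy and 0.0963, 0.0711, 0.180 and 0.208 in sick mice. The log2 ratio of Agxt2 to Ddah1 fell by 1.18 against wild-type and that of Ass1 to Asl by 1.49 (exact permutation p = 0.0286 for each, adjusted p = 0.0429). Against healthy knock-in mice these ratios fell by 1.11 and 1.56 with the same p-values.

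**Figure D4:**
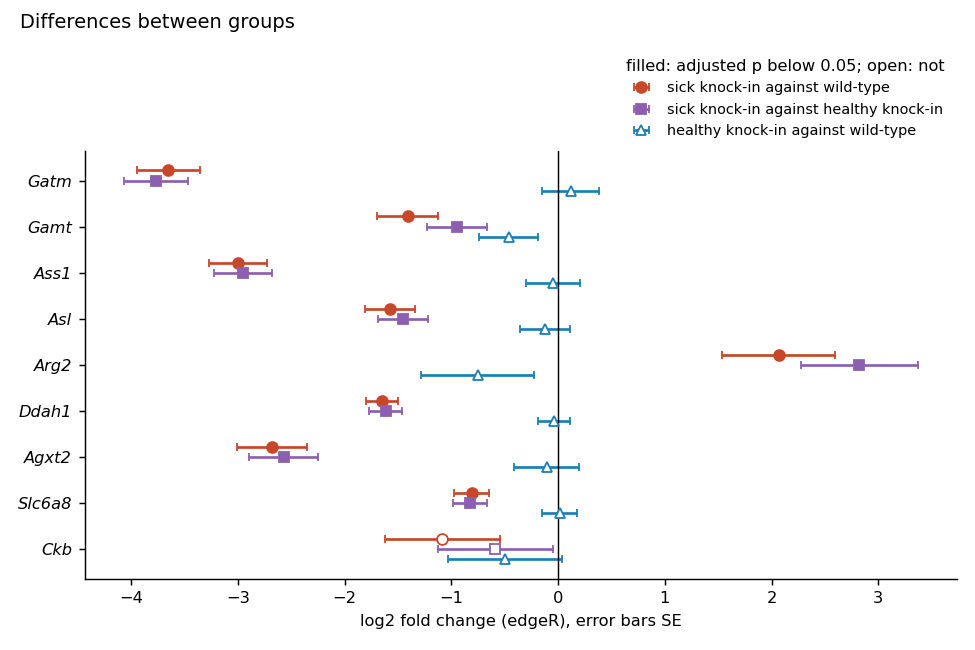
Log2 fold change (edgeR) of the 9 genes with SE bars, for sick against wild-type (circles), sick against healthy knock-in (squares) and healthy knock-in against wild-type (triangles), filled where the adjusted p is below 0.05. Gatm (-3.65 and -3.77) and Ass1 (-3.00 and -2.95) are farthest left, Arg2 (2.07 and 2.82) is the one gene to the right, and the 9 healthy against wild-type values are open.

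The healthy knock-in kidneys, which carry the same allele, had log2 fold changes from -0.76 (Arg2, ± 0.53 SE) to 0.12 (Gatm, ± 0.27 SE) against wild-type, and edgeR adjusted p-values of at least 0.912 for the 9 genes. The SE was smallest for Ddah1 (-0.04 ± 0.15) and Slc6a8 (0.01 ± 0.16) and large for Arg2 and Ckb (-0.50 ± 0.54). Ass1 (-0.05 ± 0.25), Asl (-0.12 ± 0.23), Agxt2 (-0.11 ± 0.30) and Gamt (-0.46 ± 0.28) lay between. None of the 5 ratios passed between these groups (exact permutation adjusted p 0.234 to 0.629).

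Levels were compared between genes per kilobase of exon, counting every annotated exon base of a gene once. This length can exceed that of the transcript made in kidney, which would understate a level. For Ckb its 2895 bases cover nearly the whole gene. The places below therefore depend on these lengths. In wild-type mice the order was Ass1 at 751 ± 88.4 CPM per kb (SD, n = 4), Gatm at 354 ± 92.8 and Ddah1 at 116 ± 11.8, each apart from the next. Slc6a8 (55.7 ± 8.99), Asl (54.2 ± 12.5), Agxt2 (42.1 ± 4.12) and Ckb (27.6 ± 14.8) followed with ranges that overlapped from one to the next. Gamt (11.9 ± 3.16) and Arg2 (9.10 ± 6.27) came last and overlapped. Healthy knock-in mice had the same order, and there the ranges of Ckb and Gamt overlapped as well.

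Among sick mice Ass1 was still first at 93.9 ± 37.1 CPM per kb, followed by Arg2 at 38.4 ± 18.2, Ddah1 at 37.0 ± 5.52, Slc6a8 at 31.7 ± 4.56 and Gatm at 28.2 ± 9.75. Asl (18.2 ± 4.48), Ckb (13.0 ± 3.53), Agxt2 (6.61 ± 3.57) and Gamt (4.54 ± 1.92) closed the order. Arg2 moved from place 9 to place 2 and Gatm from place 2 to place 5. In sick mice every gene overlapped in range with the next one down.

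Sick mice also differed among themselves. Sick mouse 3, the library with the fewest counts (10605546) and the highest sum of early proximal tubule markers, held the highest value of 6 of the 9 genes, Gamt, Ass1, Asl, Arg2, Ddah1 and Agxt2. The spread among sick mice was narrow for Slc6a8 and Ddah1 (coefficients of variation 14.4% and 14.9%) and wide for Agxt2 (54.0%), Arg2 (47.4%), Gamt (42.2%) and Ass1 (39.6%). Wild-type mouse 2 was the highest wild-type library for 5 of the 9 genes. Its library also stood apart over all genes. A chi-square per gene between the counts of 2 libraries was 175, 190 and 213 against wild-type mice 1, 3 and 4. Among those mice it was 12.7 to 31.7. Without mouse 2, edgeR called 8376 genes in place of 7933 against wild-type and 8513 in place of 7232 against healthy knock-in mice.

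By the root mean square difference of centred log2 CPM over the 12 libraries, among 10883 genes, the genes nearest to Gatm were Slc5a2 (0.36), the glucose transporter of the early proximal tubule, and Macrod2 (0.40). Ass1 was nearest to Cbs (0.21), which makes cystathionine, and Ugt3a2 (0.22). Asl was nearest to Selenbp1 (0.17) and to Prodh (0.18), the proline dehydrogenase, and Gamt to Coa6 and Slc25a11 (0.17 each). Ddah1 lay close to Cat (0.11), which is catalase, and Mcur1 (0.11), and Agxt2 to Sypl2 (0.22) and BC026585 (0.23). Slc6a8 lay near Zdhhc9 and Rnf123 (0.14 each). Nearest to Arg2 were the claudin Cldn3 (0.39) and Wfdc2 (0.51), and nearest to Ckb were Aldoc (0.45), a glycolytic aldolase, and Fa2h (0.46). Between members, Asl and Ddah1 were closest (0.29) and Gatm and Arg2 farthest apart (3.15).

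The other genes of these pathways numbered 65 in 6 lists, of which 55 were tested. Against wild-type, 33 were lower, 9 higher and 13 did not pass in sick mice (edgeR, adjusted over all genes), with a median log2 fold change of -1.08. Over all genes tested the shares were 25% lower and 25.9% higher. Against healthy knock-in mice 37 were lower and 8 higher, with a median of -1.13, where 21.9% of all genes were lower and 24.5% higher. Among the 37 were the muscle-type creatine kinases Ckm and Ckmt2, described below, which were high in the healthy group alone. Between healthy knock-in and wild-type mice 2 were higher, none was lower, and the median was -0.02. In that comparison 0.308% of all genes were higher and 0.00641% lower.

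Creatine use and transport, 8 genes, had 5 lower and 1 higher in sick mice against wild-type, beside 25% lower and 25.9% higher among all genes. Slc22a2, an organic cation transporter of the basolateral membrane, had 358, 490, 338 and 381 CPM in wild-type and 20.9, 43.2, 86.9 and 90.3 CPM in sick mice (log2 fold change -2.70, edgeR adjusted p = 7.15e-05). Its apical partner Slc47a1 fell 2.38-fold and the monocarboxylate transporter genes Slc16a9 and Slc16a12, the second a creatine transporter, fell 2.83-fold and 2.15-fold, with adjusted p-values of at most 3.08e-04. The highest healthy value of Slc16a9, 256 CPM in mouse 4, stood apart from 150 to 153 CPM in the others.

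Ckm and Ckmt2, the muscle-type creatine kinases, were the 2 genes higher in healthy knock-in than in wild-type mice. Ckm was at 27.2, 25.1, 26.0 and 38.8 CPM in healthy knock-in mice, at 3 counts over the 4 wild-type libraries, and at 0.0, 1.59, 0.23 and 2.0 CPM in sick mice (edgeR adjusted p = 4.86e-04 against wild-type). Ckmt2 was at 11.8, 10.7, 8.41 and 15.6 CPM in healthy knock-in mice, with 5 counts over the wild-type and 1 count over the sick libraries (log2 fold change against wild-type 6.95 ± 0.55 SE, adjusted p = 3.83e-05). Without wild-type mouse 2, which held 4 of those counts, that value was 8.49. The 6 skeletal muscle markers, Ckm among them, summed to 183 to 298 CPM (healthy), 0.89 to 2.30 CPM (wild-type) and 1.05 to 11.4 CPM (sick), and all 6 were higher in healthy knock-in than in wild-type mice. The part of skeletal muscle RNA in these libraries in the Ckm and Ckmt2 values was not tested.

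Methyl group supply, which feeds Gamt, had 7 of 9 tested genes lower and none higher against wild-type, and 8 lower against healthy knock-in mice. Among all genes 25% and 21.9% were lower in these comparisons. Cbs, which drains homocysteine into cysteine synthesis, fell 7.60-fold against wild-type (log2 fold change -2.93 ± 0.22 SE, edgeR adjusted p = 1.83e-06). Bhmt2, a homocysteine methyltransferase, fell 4.97-fold, the glycine methyltransferase Gnmt 4.63-fold and Ahcy, which hydrolyses S-adenosylhomocysteine, 3.23-fold (adjusted p at most 2.65e-04). The falls of these 4 genes against healthy knock-in mice were 7.25, 4.68, 3.67 and 3.10-fold. Mat2a, an S-adenosylmethionine synthetase and the most abundant of the list, was at 554 CPM in wild-type and 475 CPM in healthy knock-in mice (log2 fold change -0.22 ± 0.18 SE, edgeR adjusted p = 0.912). In sick mice Mat2a was lower, at a mean of 261 CPM. Its sick range of 215 to 344 CPM lay below the lowest wild-type (395 CPM) and healthy (426 CPM) values.

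Urea cycle, ornithine and proline genes had 7 of 12 tested genes lower and 2 higher in sick mice in both comparisons. Of all genes, 25% were lower and 25.9% higher against wild-type, and 21.9% and 24.5% against healthy knock-in mice. Odc1, which turns ornithine into putrescine, was at 1037, 2904, 1020 and 2016 CPM in wild-type and 103, 82.8, 139 and 213 CPM in sick mice (log2 fold change -3.70 ± 0.41 SE, edgeR adjusted p = 1.75e-05). Agmat, named for agmatine hydrolysis, fell 9.77-fold from 7.17 to 0.744 CPM. Aldh18a1, which starts proline synthesis from glutamate, rose 5.04-fold, from 2.15 to 2.77 CPM in wild-type to 8.47 to 16.2 CPM in sick mice (adjusted p = 1.69e-05). Aldh4a1, which completes proline breakdown, fell 4.14-fold against healthy knock-in mice (adjusted p = 1.52e-05). Odc1 was at 1724 CPM in healthy knock-in against 1744 CPM in wild-type mice (-0.02 ± 0.37 SE, adjusted p = 0.997).

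Arg1, the cytosolic arginase of liver and of some macrophages, had 3 counts over the wild-type libraries and 5 over the healthy libraries. Sick mouse 1 had 306 counts (12.4 CPM), and sick mice 2 to 4 had 16, 16 and 24 (0.531, 1.23 and 1.23 CPM). Both sick comparisons passed (edgeR adjusted p = 0.00152 and 0.00171), but the log2 fold change against healthy knock-in mice was 5.62 with sick mouse 1 and 3.63 without it. Sick mouse 1 also had the highest macrophage marker sum, 1287 CPM, beside 611, 647 and 887 CPM in sick mice 2 to 4, and the part of macrophages in the Arg1 values was not tested. Arg2 in the same mouse was 47.3 CPM, second lowest of the sick mice.

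Nitric oxide and methylarginine genes were the list with a median above 0 in sick mice, 0.23 against wild-type and 0.14 against healthy knock-in mice, with 4 of 11 higher and 2 lower in each. The shares of all genes were 25.9% higher and 25% lower against wild-type, and 24.5% and 21.9% against healthy knock-in mice. Ddah2, the second dimethylarginine hydrolase, was at 14.6, 21.0, 13.3 and 9.72 CPM in wild-type, 11.9, 14.3, 13.6 and 10.3 CPM in healthy and 50.5, 38.6, 50.1 and 29.1 CPM in sick mice. It rose 2.86-fold against wild-type (log2 fold change 1.52 ± 0.24 SE, edgeR adjusted p = 2.13e-04) and 3.36-fold against healthy knock-in mice (adjusted p = 9.59e-05), while Ddah1 fell. The endothelial nitric oxide synthase Nos3 rose 1.62-fold and the arginine methyltransferase Prmt2 1.85-fold against wild-type (adjusted p = 0.00877 and 0.00635). Prmt6, which makes asymmetric dimethylarginine, was 1.45-fold lower (adjusted p = 0.00268) with TMM scaling, and with library totals alone its log2 fold change was 0.06. Against healthy knock-in mice the neuronal synthase Nos1 was at 1.43 against 2.24 CPM (edgeR adjusted p = 0.0476), a call lost in most alternatives. Prmt5 was at 46.9 CPM in healthy and 49.9 CPM in wild-type mice (log2 fold change -0.09 ± 0.12 SE).

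Cationic amino acid transport split in direction, with 2 of 6 genes higher and 4 lower in sick mice in both comparisons. All genes had 25.9% higher and 25% lower against wild-type, and 24.5% and 21.9% against healthy knock-in mice. Slc7a1 and Slc7a2, the CAT transporters that bring arginine into cells, were higher. Slc7a2 was at 3.80, 3.07, 5.11 and 5.81 CPM in wild-type and 33.8, 13.6, 8.98 and 33.8 CPM in sick mice (log2 fold change 2.34 ± 0.40 SE, edgeR adjusted p = 4.09e-04). Slc7a1 rose 3.88-fold against wild-type (adjusted p = 1.47e-04). The epithelial transporters were lower, Slc7a9 by 2.89-fold and its heavy chain Slc3a1 by 2.87-fold against wild-type, and the basolateral Slc7a7 by 2.84-fold against healthy knock-in mice (adjusted p at most 1.77e-04). Slc3a1 was at 572 CPM in wild-type and 559 CPM in healthy mice (log2 fold change -0.03 ± 0.19 SE).

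Glyoxylate and beta-amino acid genes, whose substrates Agxt2 shares, had 8 of 9 tested genes lower and none higher against wild-type and 9 of 9 lower against healthy knock-in mice. Lower shares among all genes were 25% and 21.9%. Upb1, which makes beta-alanine and beta-aminoisobutyrate, was at 144, 212, 164 and 148 CPM in wild-type and 26.4, 23.4, 57.4 and 22.4 CPM in sick mice, 5.18-fold lower (edgeR adjusted p = 3.10e-05). The GABA transaminase Abat fell 4.99-fold, the glyoxylate reductase Grhpr 4.31-fold and Hibadh, of valine breakdown, 4.02-fold (adjusted p at most 9.48e-05). Aldh6a1, of the same pathway, fell 4.29-fold against healthy knock-in mice (adjusted p = 1.49e-05) and was at 1291 CPM in healthy against 1174 CPM in wild-type mice (0.14 ± 0.21 SE). Dpys was near the detection floor, at 2.62 CPM in healthy and 0.313 CPM in sick mice with overlapping ranges (log2 fold change -3.05 ± 0.85 SE, edgeR adjusted p = 0.0106). The call was lost with limma-voom (adjusted p = 0.0713), and without sick mouse 4 the edgeR value was -4.24.

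**Figure D5:**
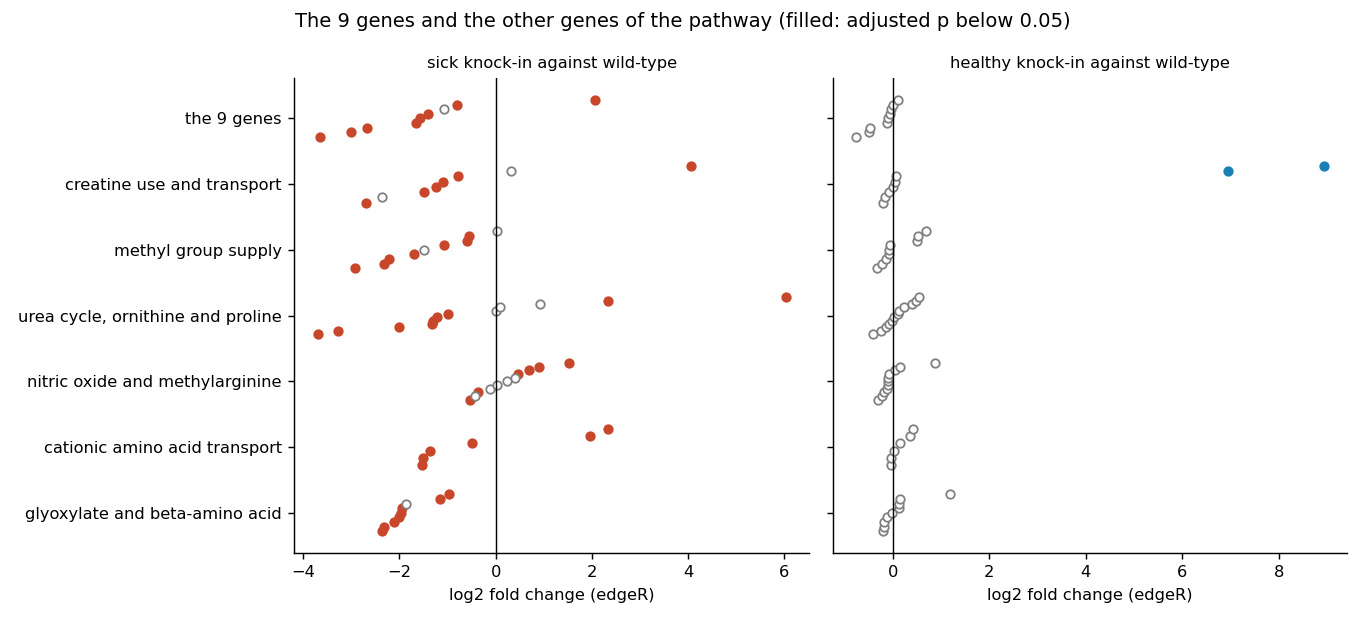
Log2 fold change (edgeR) of the 9 genes and of the tested genes in 6 lists of related genes, sick against wild-type on the left and healthy knock-in against wild-type on the right, filled where the adjusted p is below 0.05. On the left most points lie below 0 except in the nitric oxide and methylarginine list, and on the right only Ckm and Ckmt2 are filled. The values of Arg1, Ckm and Ckmt2 rest on 5 counts or fewer in the wild-type group.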

How the data were processed

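Kidney RNA from 12 mice was sequenced, 1 library per mouse, extracted with a miRvana kit and prepared with Trueseq, per the labels. Trim Galore 0.3.7, TopHat2 2.0.11, Cufflinks, DESeq2 1.12.4 and the build GRCm38 are named per the submitters' processing notes, and no source used here names the counting program. The authors deposited raw counts per gene, and beside them their own log2 fold changes and adjusted p-values, per the file headers. No per-sample column went unmatched (0).

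Counts were fitted with edgeR 4.0.16 in R 4.3.3 (filterByExpr by group, TMM, quasi-likelihood, 1 mean per group, 12 libraries), with Benjamini-Hochberg adjustment over 15589 genes and a threshold of 0.05. The script was tested on counts simulated for sick against wild-type mice. It recovered 48 of 100 genes changed by 1 log2 unit and 99 of 100 changed by 2, with 8 false calls among 155. An SE is the log2 fold change over the square root of F. CPM per kb used the union of all GENCODE M21 exons of a gene. Ratios used counts plus 0.5. Alternatives were limma 3.58.1, DESeq2 1.42.0, other scalings, filters and thresholds, and leaving out each mouse. Mice were not treated as paired by replicate number.

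The 9 members and all lists were chosen with earlier results of these data known. All members were named, and up to 4 genes per list and comparison, those past the threshold with the largest change and at least 1 CPM in the higher group, or, where none passed, the most abundant. Likeness was computed among genes of at least 5 CPM. The names Otc, Azin2, Pycr3, Prmt9, Gucy1a1, Gucy1b1, Agxt and Adgre1 (8) were not matched by symbol.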

Additional observations from a re-analysis of the deposited data

Results flagged for a closer look

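In 141 groups of 4 mice examined (1 gene or 1 of the 5 log2 ratios in 1 group each), 12 values stood apart from the other 3 by Dixon's 95% criterion, which chance meets in about 1 in 20 groups. All 12 were levels of single genes. Among the 9 genes this was only Ckb in wild-type mouse 2, at 144 CPM against 57.2 to 59.0 CPM. The same mouse was apart in 5 related genes, high in Cbs (534 CPM), Gnmt (41.1 CPM) and Grhpr (421 CPM) and low in Abat (293 CPM) and Slc16a12 (126 CPM). Healthy knock-in mouse 4 was high in Ckm (38.8 CPM) and Slc16a9 (256 CPM).

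Among sick mice, Arg1 reached 12.4 CPM in mouse 1, Upb1 57.4 CPM in mouse 3 and Dpys 0.874 CPM in mouse 4. Ckmt2 in sick mouse 2 was 0.0332 CPM, which is 1 count.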

How the results depend on the processing

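The counts of the 9 genes higher and lower stayed within 1.5 times of the reported ones in every alternative, and all 5 ratios kept their direction in both sick comparisons. Requiring a log2 fold change of at least 1 left 4693 of 7933 genes called in sick against wild-type mice and 4105 of 7232 against healthy knock-in mice, with 5 related genes higher in place of 8. Library totals alone gave 18 related genes higher in place of 9 and 14 in place of 8, turned Prmt6 to 0.0597, and put 84.0% and 85.8% of calls on the higher side against 50.8% and 52.7% with TMM. Upper-quartile scaling gave 60.0% and 61.7%. Between healthy knock-in and wild-type mice DESeq2 called 87 and limma-voom 86 genes in place of 49.

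In that last comparison small values changed sign with no call. With limma-voom Gatm was -0.0890, Slc6a8 -0.124 and Odc1 0.525. Leaving out 1 mouse at a time gave log2 fold changes of -0.00420 to 0.255 for Gatm, -0.169 to 0.0536 for Ass1, -0.238 to 0.0420 for Asl, -0.0813 to 0.0482 for Ddah1, -0.0712 to 0.105 for Slc6a8, -0.204 to 0.344 for Odc1, -0.148 to 0.0139 for Prmt5 and -0.109 to 0.0169 for Slc3a1. The cause of these changes was not tested.

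Mice were not treated as paired by replicate number. Over all genes, the correlations of same-numbered mice ran from -0.26 to 0.24. Sick and healthy mice 1 and 4 each correlated best with the wild-type mouse of their own number. These values cannot exclude a pairing. With the number as a replicate block, 3866 genes were higher and 3614 lower in sick against wild-type mice, the calls among the 9 genes did not change, the Nos1 call was lost, and Odc1 moved to 0.0299 in healthy against wild-type mice.

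Gamt rested on 116 to 394 counts per library and Arg2 on 35 to 1661. Arg1, Ckm, Ckmt2 and Dpys had few counts in some groups. The part of depth in the spread of these genes was not tested.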
